A study of Mus musculus with 7 samples.

Results

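Open chromatin of sorted Tomato+ and Tomato- cells of 1 mouse line was compared from the peak lists of 3 ATAC-seq libraries, Tomato+ replicates 6 and 8 and Tomato- replicate 7. Peaks with a -log10 q of at least 2 were taken, and peaks that shared at least 1 bp were merged into 127636 regions, of 210347 over the 7 libraries of the series. A region with a peak in both Tomato+ libraries and none in the Tomato- library was called Tomato+ only, a region with a peak in the Tomato- library alone was called Tomato- only, and a region with a peak in all 3 was called shared. These classes held 64905 regions, namely 3080 Tomato+ only, 31798 Tomato- only and 30027 shared, and the remaining regions lay in 1 Tomato+ library, with or without the Tomato- library.

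Both cell groups came from E9.5 Mef2c-Cre;RosatdT embryos, dissected around the second heart field (SHF) and sorted by fluorescence. Cre was driven by an SHF-restricted fragment of Mef2c, and it permanently switches on tdTomato from the Rosa26 locus, so Tomato marks cells with Cre activity and their descendants and not the current activity of Mef2c. The Tomato- cells were the other cells of the same dissected region of this line. That every embryo pooled for them carried the same alleles was not checked. Embryos were pooled, and the methods state 10000 sorted cells per sample. The other 4 libraries, GFP+ replicates 3 and 4 and GFP- replicates 1 and 2, came from the Hoxb1GFP line at the same stage, in which GFP reports Hoxb1, a gene of the posterior SHF. They did not enter the classes and serve here as an outside measurement. There was 1 Tomato- library, so no difference between Tomato+ and Tomato- cells could be tested over libraries, and shares are given with 95% Wilson confidence intervals that cover counting error only. Neither the labels nor the methods say whether the Tomato+ libraries came from separate litters, and the replicate numbers are the last digits of the sample titles. The run name recorded by the peak caller for Tomato+ replicate 6 contains the letters YFP, and the sample label was followed. Tomato+ replicate 8 ranked shared regions more like the Tomato- library than like Tomato+ replicate 6, as given with the ranks. Without Tomato+ replicate 6 there were 24137 regions in Tomato+ and not in Tomato- cells, and without Tomato+ replicate 8 there were 32123, against 3080 where both had to hold a peak.

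The SHF is a pool of mesodermal progenitors behind the early heart tube that adds myocardium to the outflow tract, right ventricle and venous pole. Its anterior part depends on factors such as Isl1, Mef2c, Tbx1 and Fgf10, and its posterior part expresses Hoxb1, Tbx5, Osr1 and Aldh1a2. Pharyngeal endoderm, neural tube, neural crest, somites, endothelium and blood lie beside it and can be part of a dissected piece. ATAC-seq inserts adapters into accessible DNA, so that reads accumulate at promoters and enhancers, and a transcription start site (TSS) is open in many cells that do not transcribe the gene strongly.

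The sequences to which the values below refer are printed first, as up to 200 bases around the summit from GRCm38, plus strand, 5′ to 3′, with exonic bases left out. Capitals mark the letters of any of 21 searched motifs on either strand, none of which is contained in another. Among all 110735 distal regions, windows of 200 bp held AGATAA, which factors of the GATA family read, in 6.97%, the TEAD letters GGAATG in 11.2%, the nuclear receptor letters AGGTCA in 12.9%, the ZIC letters CAGCAGG in 9.41%, the HAND and TWIST E-box CATCTG in 17.1%, the AP-1 letters TGACTCA in 3.48% and the CTCF letters AGGGGGCG in 1.26%. A match describes the letters and not a bound site. The Aplnr and St8sia1 windows show a leading Tomato+ only and a leading Tomato- only region, Neurog2 the shared region that ranked furthest towards the Tomato- library, and Mef2c the gene whose fragment drove Cre. The Fgf10, Wt1 and Pln windows show, for each heart gene list described below, the distal region seen in Tomato+ replicate 6 alone that held AGATAA and had the highest fold enrichment, and the Actc1 promoter was chosen after its values were seen.
Aplnr, Tomato+ only, chr2:85123964-85124163: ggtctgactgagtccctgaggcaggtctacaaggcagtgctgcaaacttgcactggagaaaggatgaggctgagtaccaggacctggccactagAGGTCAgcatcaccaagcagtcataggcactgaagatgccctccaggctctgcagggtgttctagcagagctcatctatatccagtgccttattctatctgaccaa
St8sia1 intron, Tomato- only, chr6:142835863-142836062: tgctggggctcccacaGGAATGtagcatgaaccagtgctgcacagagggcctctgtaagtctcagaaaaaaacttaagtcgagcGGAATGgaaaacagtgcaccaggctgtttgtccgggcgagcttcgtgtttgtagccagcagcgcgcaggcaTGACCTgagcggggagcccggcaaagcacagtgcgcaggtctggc
Neurog2 upstream, shared, chr3:127625334-127625533: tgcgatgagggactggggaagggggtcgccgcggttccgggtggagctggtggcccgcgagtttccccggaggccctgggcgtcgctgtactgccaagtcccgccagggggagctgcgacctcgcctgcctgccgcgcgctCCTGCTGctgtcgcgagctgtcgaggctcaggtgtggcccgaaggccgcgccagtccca
Mef2c intron, shared, chr13:83520871-83521070: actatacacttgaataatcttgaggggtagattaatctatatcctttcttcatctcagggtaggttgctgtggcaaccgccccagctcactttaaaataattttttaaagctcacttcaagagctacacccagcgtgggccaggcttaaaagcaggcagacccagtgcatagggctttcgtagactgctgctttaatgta
Mef2c intron, shared, chr13:83523710-83523889: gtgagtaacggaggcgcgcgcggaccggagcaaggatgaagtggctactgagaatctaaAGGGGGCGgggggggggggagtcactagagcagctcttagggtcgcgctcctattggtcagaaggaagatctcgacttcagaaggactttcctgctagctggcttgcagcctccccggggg
Actc1 promoter, Tomato+ only, chr2:114052876-114053013: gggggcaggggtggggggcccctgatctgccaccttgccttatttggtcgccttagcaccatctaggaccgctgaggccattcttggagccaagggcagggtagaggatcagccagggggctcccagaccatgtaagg
Fgf10 intron, Tomato+ replicate 6 alone, chr13:118759167-118759366: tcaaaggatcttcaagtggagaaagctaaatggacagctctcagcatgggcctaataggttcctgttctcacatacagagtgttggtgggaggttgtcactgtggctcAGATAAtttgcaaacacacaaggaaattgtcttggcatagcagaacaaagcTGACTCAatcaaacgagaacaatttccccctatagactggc
Wt1 intron, Tomato+ replicate 6 alone, chr2:105139446-105139645: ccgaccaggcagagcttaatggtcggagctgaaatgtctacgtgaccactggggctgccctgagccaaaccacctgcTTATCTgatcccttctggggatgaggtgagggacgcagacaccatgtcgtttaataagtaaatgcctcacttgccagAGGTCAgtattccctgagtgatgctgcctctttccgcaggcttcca
Cep85l intron near Pln, Tomato+ replicate 6 alone, chr10:53324818-53325017: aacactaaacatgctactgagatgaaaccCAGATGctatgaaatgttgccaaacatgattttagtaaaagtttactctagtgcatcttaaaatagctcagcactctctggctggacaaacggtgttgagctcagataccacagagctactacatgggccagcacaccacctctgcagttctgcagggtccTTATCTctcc

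The authors deposited between 202837 and 248015 peaks per library, of which 71127 in Tomato+ replicate 6, 64306 in Tomato+ replicate 8 and 77746 in the Tomato- library reached a -log10 q of 2. The tags behind these lists, computed from the background rate of the peak caller, were 52340120, 64869438 and 93074895. The Tomato- library was thus the deepest, and the median fold enrichment of its peaks, the ratio of the tag pileup at the summit to the local background, was 3.45 against 3.94 and 3.95. The number of peaks and their p and q grow with depth, so a peak present in the Tomato- library alone and its depth cannot be told apart. In these sorted bulk samples, fewer cells of a type and less open chromatin per cell cannot be told apart either.

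The Tomato+ only class was the smallest of the 7 combinations of libraries. Of the merged regions 2.41% were Tomato+ only, 24.9% Tomato- only and 23.5% shared, while 28688 lay in Tomato+ replicate 6 alone and 20721 in Tomato+ replicate 8 alone. A further 5797 regions lay in Tomato+ replicate 6 and the Tomato- library, and 7525 in Tomato+ replicate 8 and the Tomato- library. Both of these mixed combinations were larger than the class in which the Tomato+ replicates went together. Of the 67592 regions of Tomato+ replicate 6, 49.0% (48.6 to 49.4) were found in Tomato+ replicate 8 and 53.0% (52.6 to 53.4) in the Tomato- library. Of the 61353 regions of Tomato+ replicate 8, 54.0% (53.6 to 54.4) were found in replicate 6 and 61.2% (60.8 to 61.6) in the Tomato- library. Each Tomato+ library therefore shared more regions with the deeper Tomato- library than with the other Tomato+ library. With the 30000 peaks of smallest p in each library, which sets the lists to equal length, there were 1466 Tomato+ only, 4515 Tomato- only and 19473 shared regions.

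**Figure D1:**
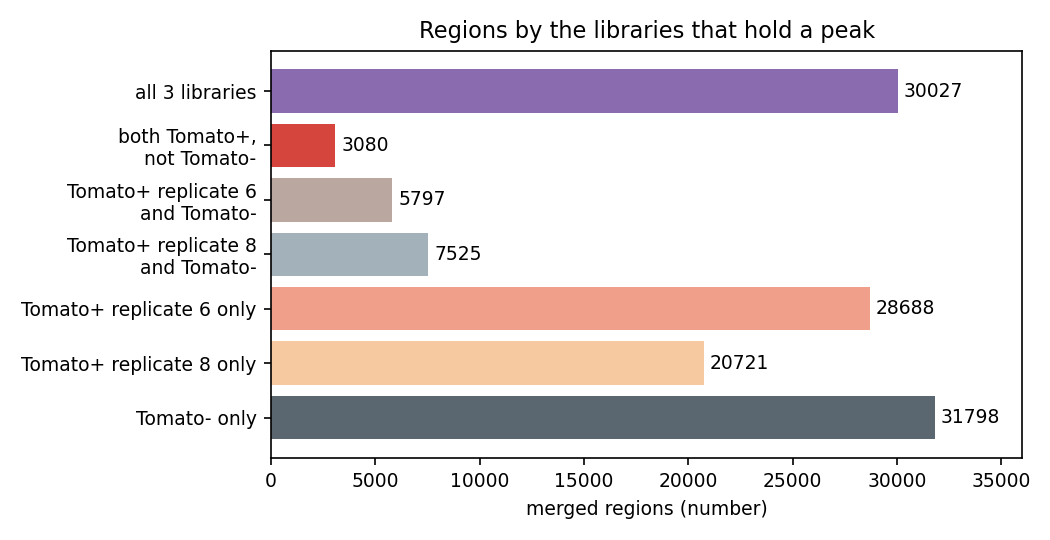
Number of merged regions (horizontal axis) by the libraries that hold a peak with a -log10 q of at least 2. The bar for both Tomato+ libraries without the Tomato- library, 3080 regions, is the shortest, and the bars for all 3 libraries and for single libraries are the longest.

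Regions outside the shared class were weaker peaks than shared ones. The median fold enrichment of Tomato+ only regions was 3.94 in replicate 6 and 3.64 in replicate 8, and that of Tomato- only regions was 3.04. Shared regions had medians of 5.36, 5.66 and 5.61 in Tomato+ replicates 6 and 8 and the Tomato- library. Of the Tomato+ only regions, 1633 (53.0%) held a weaker deposited Tomato- peak, below the threshold, and 1447 held none. Of the Tomato- only regions, 11567 (36.4%) held a weaker Tomato+ peak and 20231 held none. The median length was 265 bp for Tomato+ only, 127 bp for Tomato- only and 505 bp for shared regions.

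Position relative to genes was not used to form the classes. A promoter is here the stretch from 1000 bp upstream to 100 bp downstream of a curated RefSeq TSS. It was overlapped by 262 of the Tomato+ only regions, 8.51% (7.57 to 9.54), by 1289 of the Tomato- only regions, 4.05% (3.84 to 4.28), and by 12073 of the shared regions, 40.2% (39.7 to 40.8). Regions of a single Tomato+ library lay at promoters as rarely as the Tomato- only regions, at 3.83% for replicate 6 alone and 3.63% for replicate 8 alone. Regions of 1 Tomato+ library and the Tomato- library reached 9.85% with replicate 6 and 11.3% with replicate 8, above the Tomato+ only regions in the latter case. Regions that needed 2 libraries thus lay at promoters more often than regions that needed 1, whichever libraries these were.

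The libraries of the Hoxb1GFP line gave a measurement that the classes had not used. A peak was present at 41.3% (39.6 to 43.1) and 41.8% (40.0 to 43.5) of the Tomato+ only regions in the GFP+ libraries and at 37.1% (35.5 to 38.9) and 36.7% (35.0 to 38.4) in the GFP- libraries. The GFP+ intervals lay above the GFP- intervals. GFP+ replicates 3 and 4 had 59435263 and 76766044 tags and 72289 and 71040 peaks at the threshold. GFP- replicates 1 and 2 had 76155637 and 68775066 tags and 65086 and 70280 peaks. Whether the longer GFP+ peak lists add to this order was not tested. Regions of Tomato+ replicate 6 alone showed the same order, at 10.8% and 11.2% in GFP+ against 7.35% and 7.95% in GFP- libraries. Regions of Tomato+ replicate 8 with the Tomato- library showed the opposite order, at 44.7% and 48.0% in GFP+ against 51.6% and 50.4% in GFP- libraries. In regions of Tomato+ replicate 8 alone the libraries overlapped, with 9.64% and 10.7% in GFP+ against 10.1% and 10.9% in GFP-, and so they did in Tomato- only regions, with 11.2% and 12.4% against 11.2% and 11.8%. Regions of Tomato+ replicate 6 with the Tomato- library had peaks at 43.3% and 45.5% in GFP+ against 39.6% and 40.99% in GFP- libraries. Over all merged regions the shares were 33.6% and 34.6% against 33.2% and 33.5%, so the libraries differed little in general. Shared regions had a peak in 90.2% and 91.0% against 90.7% and 90.6%. Outside the shared regions, the higher share in GFP+ libraries therefore went with the presence of a peak in Tomato+ replicate 6, also where the Tomato- library had one, and was not seen for Tomato+ replicate 8 without replicate 6. These are shares of regions, which do not stand for replicates of a condition.

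**Figure D2:**
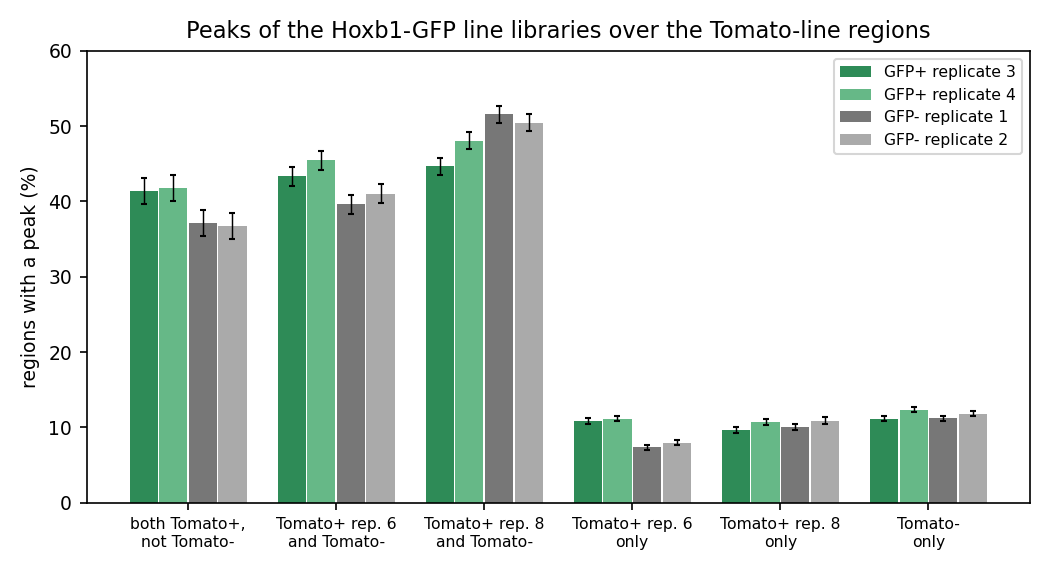
Share of regions with a peak (vertical axis, percent) in each of the 4 libraries of the Hoxb1GFP line, by the combination of Tomato-line libraries that holds the region, with 95% Wilson confidence intervals. GFP+ bars stand above GFP- bars in the 3 combinations with Tomato+ replicate 6 other than the shared regions, and below them for Tomato+ replicate 8 with Tomato-.

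Within the shared regions, each library ranked its peaks by -log10 p, and ranks were written as percentiles, with 100 for the smallest p, since ranks do not grow with depth as p does. Spearman's rho over the 30027 shared regions was 0.781 between the Tomato+ libraries, 0.8 between Tomato+ replicate 6 and the Tomato- library and 0.862 between Tomato+ replicate 8 and the Tomato- library. The median distance in rank was 10.5 percentile points between the Tomato+ libraries, 10.1 between replicate 6 and the Tomato- library and 8.28 between replicate 8 and the Tomato- library. The Tomato+ libraries thus ranked shared regions less alike than either did with the Tomato- library. Over the 23628 regions with a peak in all 7 libraries, Tomato+ replicate 8 correlated at 0.797 and 0.8 with the GFP+ and at 0.834 and 0.821 with the GFP- libraries. The Tomato- library had 0.808 and 0.810 with the GFP+ and 0.830 and 0.832 with the GFP- libraries. Tomato+ replicate 6 had values between 0.764 and 0.770 with all 4. The ranks of Tomato+ replicate 8 and of the Tomato- library were hence closer to the GFP- than to the GFP+ libraries, and Tomato+ replicate 6 was the least like the 4 libraries of the Hoxb1GFP line, while its values with Tomato+ replicate 8 and the Tomato- library were 0.785 and 0.803. These correlations are descriptions across regions, which share depth and base composition.

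A shared region was called higher in Tomato+ where both Tomato+ libraries ranked it at least 20 percentile points above the Tomato- library, and higher in Tomato- where both ranked it at least 20 points below. There were 919 regions higher in Tomato+ (3.06%) and 870 higher in Tomato- (2.90%). The regions higher in Tomato+ had median ranks of 54.0, 50.02 and 16.4 and median fold enrichments of 5.91, 5.91 and 3.81 in Tomato+ replicates 6 and 8 and the Tomato- library. The regions higher in Tomato- had median ranks of 17.5, 21.3 and 53.5 and median fold enrichments of 3.94, 3.98 and 5.83. These sizes were met by other groupings of the same 3 libraries. Tomato+ replicate 6 ranked 2020 regions at least 20 points above both other libraries and 2019 below both, and Tomato+ replicate 8 ranked 1112 above and 1233 below both others. More regions thus set a Tomato+ library apart from the other 2 libraries than set the Tomato- library apart. Promoters made up 29.3% (26.4 to 32.3) of the regions higher in Tomato+, 42.3% (39.1 to 45.6) of those higher in Tomato- and 40.5% of the rest, so the regions higher in Tomato+ lay more often away from promoters.

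**Figure D3:**
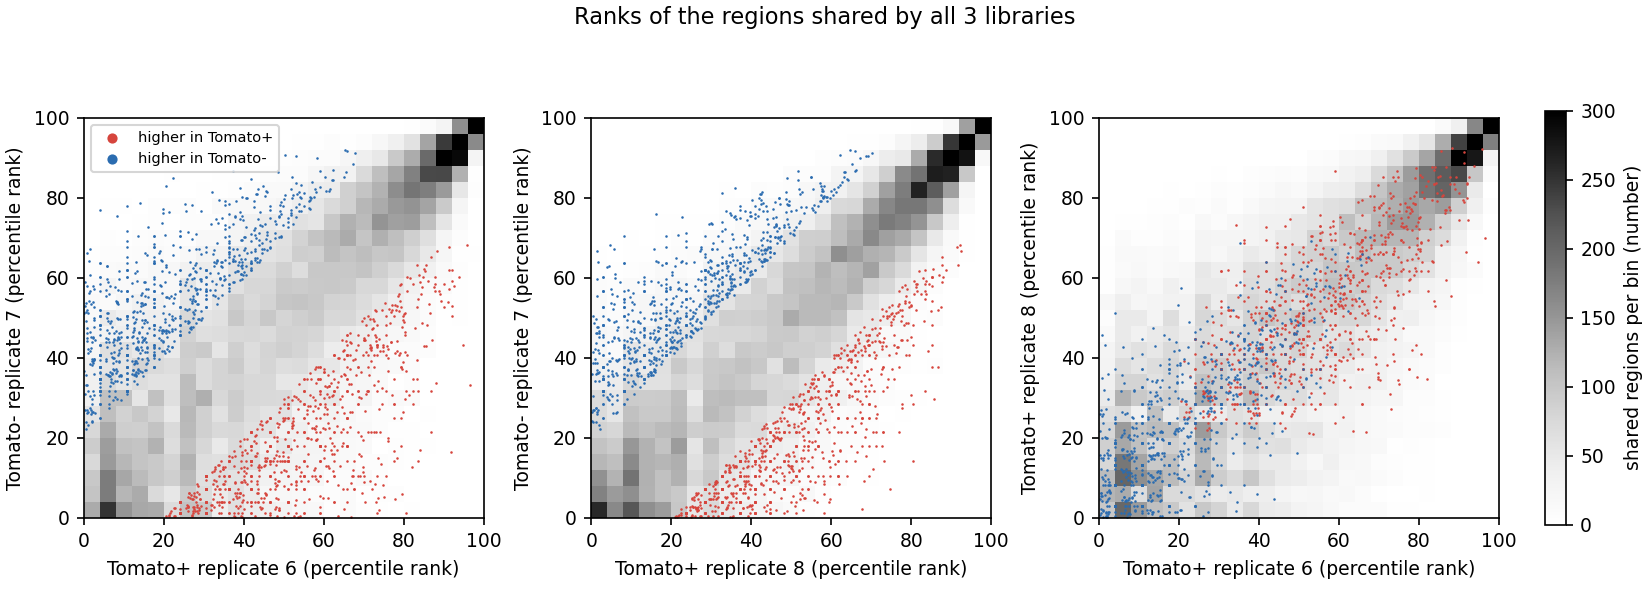
Percentile rank of -log10 p in 1 library against another for the 30027 shared regions, with grey squares for the number of regions in bins of ranks, red points for the 919 regions higher in both Tomato+ libraries and blue points for the 870 regions higher in the Tomato- library. The coloured points are off the diagonal by their definition in the left and middle panels, and in the right panel, Tomato+ replicate 6 against 8, they lie along the diagonal.

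Among the Tomato+ only regions, the 8 with the highest fold enrichment in low-repeat sequence, taking the lower library, included 1 promoter. This was at Cntnap5a (chr1:115684557-115684947, -11 bp from the TSS), which encodes a neuronal cell adhesion protein, with fold enrichments of 5.91 and 5.66 in Tomato+ replicates 6 and 8. The region upstream of Aplnr (chr2:85123821-85124261, intergenic, -12296 bp), the apelin receptor gene, had 7.61 and 5.66, and an intergenic region nearest to 3830408C21Rik (chr13:107207825-107208180) had 5.68 and 7.36. Introns of Atp8a2, which encodes a phospholipid flippase (chr14:59943216-59943500), and of Lrmp (chr6:145168945-145169159) had 7.23 and 5.38, and 8.87 and 5.16. The other 3, at exons of Gm8882 and Slc25a15 and near 1700007L15Rik, had lower values of 5.26, 5.26 and 5.23. Of these 8 regions, 6 had a peak in all 4 libraries of the Hoxb1GFP line, GFP- libraries included.

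The 8 leading Tomato- only regions had fold enrichments from 6.04 to 7.34 in the Tomato- library. They lay in introns of Sos1 (chr17:80468430-80468810, 7.34), which encodes an activator of Ras, Mnd1 (chr3:84135418-84135701, 6.47), a meiotic recombination gene, St8sia1 (chr6:142835806-142836137, 6.47), which encodes the synthase of ganglioside GD3, and Znrf1, Tnrc6b and Ncoa1, and in intergenic sequence nearest to Lrriq3 and Cd209f. The 3 regions at Tnrc6b, Cd209f and Lrriq3 had a peak in at most 1 of the Hoxb1GFP line libraries, and the Sos1 region had one in all 4. None of the genes nearest to the leading regions of the 2 classes was on the gene lists described next.

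The largest gap in rank towards the Tomato- library was at an intergenic region -7702 bp from the TSS of Neurog2 (chr3:127625367-127625687), a proneural factor gene. Its percentile ranks were 1.45 and 5.57 in Tomato+ replicates 6 and 8 and 67.3 in the Tomato- library, with fold enrichments of 3.22, 3.16 and 6.83. Both Tomato+ libraries were low and the Tomato- library was high, and all 4 libraries of the Hoxb1GFP line had a peak there. The other 7 regions of this kind lay nearest to Syf2, Coq7, Elfn1, Gm3667, Epb41l2, H2-K2 and Tdpoz3, with ranks of at most 9.06 in the Tomato+ and from 52.6 to 62.9 in the Tomato- library. Towards Tomato+, the 8 largest gaps included the promoters of Gm3411, Pakap and Rimbp2, the last encoding a protein of synaptic release sites, and an intron of Zfpm1, which encodes the GATA cofactor FOG1. The Rimbp2 promoter (chr5:128953339-128953752) ranked 59.9 and 53.4 in the Tomato+ libraries and 4.97 in the Tomato- library. The Zfpm1 intron (chr8:122294194-122294639) ranked 74.3, 60.8 and 13.3. An intergenic region nearest to Klrb1 (chr6:128753852-128754223) ranked 73.9, 52.8 and 1.84, the lowest Tomato- rank of the 8.

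To read the classes by tissue, 10 lists of marker genes were used, with 180 distinct genes for the anterior SHF and pharyngeal mesoderm, the posterior SHF, cardiomyocytes, endothelium, blood, neural tube, neural crest, foregut endoderm, somites and surface ectoderm. The lists were drawn up with earlier results of these data known. Of all 26180 genes, 54.0%, 54.8% and 56.7% had a promoter peak in Tomato+ replicates 6 and 8 and the Tomato- library. Of the 24 neural genes 13, 20 and 22 had one, of the 15 blood genes 4, 4 and 10, and of the 20 endothelial genes 7, 9 and 12. Of the 24 cardiomyocyte genes 12, 6 and 7 had one, of the 22 anterior genes 17, 12 and 15, and of the 21 posterior genes 16, 14 and 14. Tomato+ replicate 6 thus had the most open promoters of the 3 heart lists and the fewest of the neural, endothelial and somite lists, where it tied with replicate 8 for somites at 8 of 16, against 12 in the Tomato- library. Tomato+ replicate 8 lay with the Tomato- library for cardiomyocyte and neural genes and with replicate 6 for blood genes. Neural crest (9, 12 and 11 of 15), endoderm (4, 7 and 7 of 16) and surface ectoderm (3, 3 and 4 of 10) promoters were also fewest or equal fewest in replicate 6. Markers of neural, crest and endoderm cells were therefore open in the Tomato+ sort as well, and in replicate 8 at numbers near those of the Tomato- library. Whether cells of these tissues in the sort contributed to the regions of replicate 8 was not tested.

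Promoter regions that were Tomato+ only were found at 5 of the 180 list genes (background 1.04% of genes), Actc1, Osr1, Wt1, Pax6 and Dlx3. Actc1, the cardiac actin gene, had fold enrichments of 5.70 and 3.85 in Tomato+ replicates 6 and 8 at chr2:114052731-114053185, with -log10 q of 8.71 and 3.51. A weaker Tomato- peak with a fold enrichment of 2.81 and a -log10 q of 1.67 lay at the same promoter. Both Tomato+ libraries were thus above the Tomato- library, which just missed the threshold. Osr1, a posterior SHF factor (chr12:9574461-9574813), had 3.37 and 3.79, and Wt1, an epicardial factor (chr2:105126298-105126658), had 3.91 and 3.14. Pax6, a neural and eye factor (chr2:105676208-105676769), had 4.42 and 2.69, and the Tomato- library had a peak with a fold enrichment of 4.14 at another Pax6 promoter. Dlx3, a factor of surface ectoderm (chr11:95119847-95120458), had 4.14 and 3.10. At Osr1 and Dlx3 the promoter window itself was reached by the peak of 1 of the Tomato+ libraries. None of the 5 genes was left when the Tomato- library had to lack any deposited peak, a rule that 69 of all genes met. At a -log10 q of at least 4, 4 other list genes took their place, Foxf1, Gata5, Cd34 and Irx3.

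Tomato- only regions lay at the promoters of 22 list genes (background 4.85% of genes), 6 of them from the blood list and 5 from the endothelial list. The blood genes included Hbb-y, Hbb-bh1 and Hba-x, which encode embryonic globins, Slc4a1, which encodes a red cell membrane protein, and Gfi1b, a factor of red cell and platelet precursors. Hbb-y (chr7:103853200-103853424) had a fold enrichment of 4.10 and Hbb-bh1 (chr7:103843159-103843335) of 3.88 in the Tomato- library, with -log10 q of 5.30 and 4.62, and neither Tomato+ library had a deposited peak at these promoters. Hba-x (chr11:32276630-32276854) had 3.62, Slc4a1 3.28 and Gfi1b 2.97. At Hba-x, Tomato+ replicate 8 had a weaker peak with a fold enrichment of 2.898 and a -log10 q of 1.47. Of the globin promoters, Hbb-y and Hbb-bh1 thus had a deposited peak in the Tomato- library only, at tags of 93074895 against 52340120 and 64869438. Of the 6 genes, 5 remained at a -log10 q of at least 4, 4 where no Tomato+ peak at any p was allowed, and 1, Hba-x, with the 30000 strongest peaks of each library. The endothelial genes were Cdh5, the VE-cadherin gene (2.697), and the factors Tal1 (3.88), Fli1 (2.57), Sox7 (3.46) and Sox18 (2.52). At Sox18, both Tomato+ libraries had peaks below the threshold with higher fold enrichments, 2.87 and 2.75. Their -log10 q were 1.98 and 1.92, against 2.19 in the Tomato- library. Tomato+ peaks below the threshold at Sox7 had 2.61 and 2.75. At Fli1, Tomato+ replicate 8 had another promoter peak with a fold enrichment of 2.99 and a -log10 q of 2.72, and at Tal1 Tomato+ replicate 6 had one with 3.09 and 2.38. Of these, Tal1 kept such a region with the 30000 strongest peaks, and Cdh5, Fli1 and Tal1 kept it where no Tomato+ peak was allowed.

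The other Tomato- only promoters were spread over the lists. They were Sox2, Dbx1 and Nhlh2 of the neural list, with fold enrichments of 2.87, 2.87 and 3.83, Fgf8 (2.51) and Wnt5a (3.13) of the anterior list, Tnnt2 (3.11) and Nppb (2.92) of the cardiomyocyte list, and Tfap2a (2.87), Pax8 (2.94), Meox1 (2.92) and Grhl2 (2.94) of the crest, endoderm, somite and ectoderm lists. At Tnnt2, the cardiac troponin T gene, Tomato+ replicate 6 had another promoter peak with a fold enrichment of 3.99 and a -log10 q of 6.39, and replicate 8 had none. At Nppb, both Tomato+ libraries had peaks below the threshold with 2.77 and 2.86. Their -log10 q were 1.21 and 1.41, against 2.19 in the Tomato- library. At Sox2 and Tfap2a, Tomato+ replicate 8 had other promoter peaks with 4.26 and 4.697 and -log10 q of 6.32 and 7.86, against best Tomato- promoter peaks of 4.795 and 3.46. No posterior SHF promoter was Tomato- only at a -log10 q of 2, and at 4 there were 5, at Aldh1a2, Gata4, Hoxb1, Sfrp5 and Shox2. Of all genes, 3.48% had such a promoter region at 4. With the 30000 strongest peaks of each library, Shox2 was the only posterior gene with one. At Hoxb1 and Sfrp5, Tomato+ replicate 8 had higher fold enrichments, 3.54 and 3.503 against 3.41 and 3.28 in the Tomato- library. Its -log10 q there were 3.41 and 3.76, below this threshold. At Aldh1a2, Gata4 and Shox2 the Tomato- library was highest.

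By rank, 5 list promoters were higher in Tomato+ (background 1.12% of genes), Mef2c, Gata5, Foxc1, Cd34 and Runx1. Gata5, a cardiac GATA factor gene (chr2:180334475-180335075), ranked 73.7 and 39.2 in Tomato+ replicates 6 and 8 and 4.95 in the Tomato- library. Foxc1, a factor of the SHF and head mesoderm (chr13:31806143-31806740), ranked 43.0, 45.5 and 20.6. Cd34 (chr1:194938740-194939260), expressed on endothelial and blood progenitors, ranked 51.2, 37.1 and 3.86, and Runx1 (chr16:92698221-92699007), a factor of blood formation, 60.01, 58.61 and 29.99. Heart and blood genes were thus both among them. The 3 promoters higher in Tomato- (background 1.63% of genes) included Egr2 and Nfe2. Egr2, a hindbrain factor gene (chr10:67536021-67536338), ranked 14.5, 11.3 and 41.9, and Nfe2, a factor of red cell precursors (chr15:103258360-103258801), ranked 26.3, 30.2 and 60.6.

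Several heart promoters had a peak at the threshold in Tomato+ replicate 6 and in neither other library. Nppa, which encodes atrial natriuretic peptide, had a fold enrichment of 3.75 with a -log10 q of 3.51, and Tcf21, a factor of pharyngeal and epicardial mesoderm, 4.52 with 5.60. Neither gene had a deposited promoter peak in Tomato+ replicate 8 or the Tomato- library. Nkx2-5, an early cardiac factor, had 4.17 with a -log10 q of 6.30 in replicate 6, no peak in replicate 8 and 2.46 with 1.35 in the Tomato- library. Hand2 had 3.18, 2.85 and 2.25 with -log10 q of 3.25, 1.54 and 0.887, and Bmp4 had 3.58 and 2.58 with 4.52 and 1.23 in the Tomato+ libraries and no Tomato- peak. At these promoters replicate 6 was the highest library. Replicate 8 lay between the other libraries at Hand2 and Bmp4 and was the lowest at Nkx2-5. At Nppa and Tcf21 it had no peak, like the Tomato- library. These promoters were picked for their values, and others of the heart lists had replicate 6 lowest, such as Isl1 with 4.19, 6.69 and 7.09, Actn2 with 7.45, 11.7 and 9.57, Myl4 with 4.84, 9.19 and 6.83 and Sema3c with 6.24, 15.5 and 9.02. Replicate 6 had the strongest promoter peak at 12 of the 19 cardiomyocyte genes with any deposited promoter peak, 10 of 22 anterior and 8 of 20 posterior genes, and the weakest, or alone none, at 4, 6 and 3. Among 18 endothelial genes replicate 6 was also the strongest at 8, against 5 for each other library, and the weakest at 6. High counts of replicate 6 were thus not confined to the heart lists, and the share over all genes was not computed. Of 23 neural genes replicate 6 was the strongest at 3, replicate 8 at 8 and the Tomato- library at 12, and replicate 6 was the weakest at 12. Neurod1 had no peak in replicate 6, 4.62 in replicate 8 and 5.21 in the Tomato- library, Elavl3 none, 3.95 and 2.71, and Zic1 2.39, 3.58 and 3.96. Lhx1, with 5.19, 3.28 and 3.26, was among the neural genes with the opposite order.

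The same split was seen in regions assigned to the list genes as the nearest TSS within 150 kb. Over all 112897 such regions, 2.4% were Tomato+ only, 25.2% Tomato- only, 23.4% shared, 22.5% in Tomato+ replicate 6 alone, 16.3% in Tomato+ replicate 8 alone, 4.49% in replicate 6 with the Tomato- library and 5.73% in replicate 8 with the Tomato- library. Of the anterior list regions 76 of 234, 32.5% (26.8 to 38.7), and of the posterior list regions 51 of 150, 34.0% (26.9 to 41.9), lay in Tomato+ replicate 6 alone, and of the cardiomyocyte list regions 28 of 90, 31.1% (22.5 to 41.3). Blood, with 9 of 64, 14.1% (7.58 to 24.6), and neural crest, with 17 of 121, 14.0% (8.96 to 21.4), were the lists with the smallest share. The anterior and posterior intervals lay above the share of all regions and the crest interval below it, while the cardiomyocyte interval started at it. With the 30000 strongest peaks of each library the anterior, posterior and cardiomyocyte shares were 29.9%, 31.9% and 44.0% against 15.2% of all regions, and the neural share was 12.3%. The crest share was then 24.3%, above that of all regions, and at a -log10 q of at least 4 it was 21.3% against 13.9%, so its order turned. The surface ectoderm list then had 6 of 12 regions there, so the order of the lists depended on the depth of the peak lists.

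Tomato+ replicate 8 did not show the shares of replicate 6. Regions in replicate 8 alone made up 14.1% of the anterior, 11.3% of the posterior and 17.8% of the cardiomyocyte list regions, close to or below the background. Regions of replicate 8 with the Tomato- library made up 32 of 240 neural list regions, 13.3% (9.61 to 18.2), above the share of all regions, and 3.85% (2.04 to 7.15) of the anterior list regions. With the 30000 strongest peaks the neural share was 12.3% (6.37 to 22.5) against 8.94% of all regions, and the anterior share rose to 14.9% (8.31 to 25.3), so this order did not hold there. Tomato- only regions made up 33.1% (25.3 to 41.8) of the crest, 32.8% (22.6 to 45.0) of the blood, 28.3% (23.0 to 34.3) of the neural and 18.7% (13.2 to 25.7) of the posterior list regions. The intervals of blood, neural and posterior genes included the share of all regions. The crest share fell below that of all regions with the 30000 strongest peaks, at 8.11% against 10.8%, and at a -log10 q of at least 4, at 14.9% against 17.2%.

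**Figure D4:**
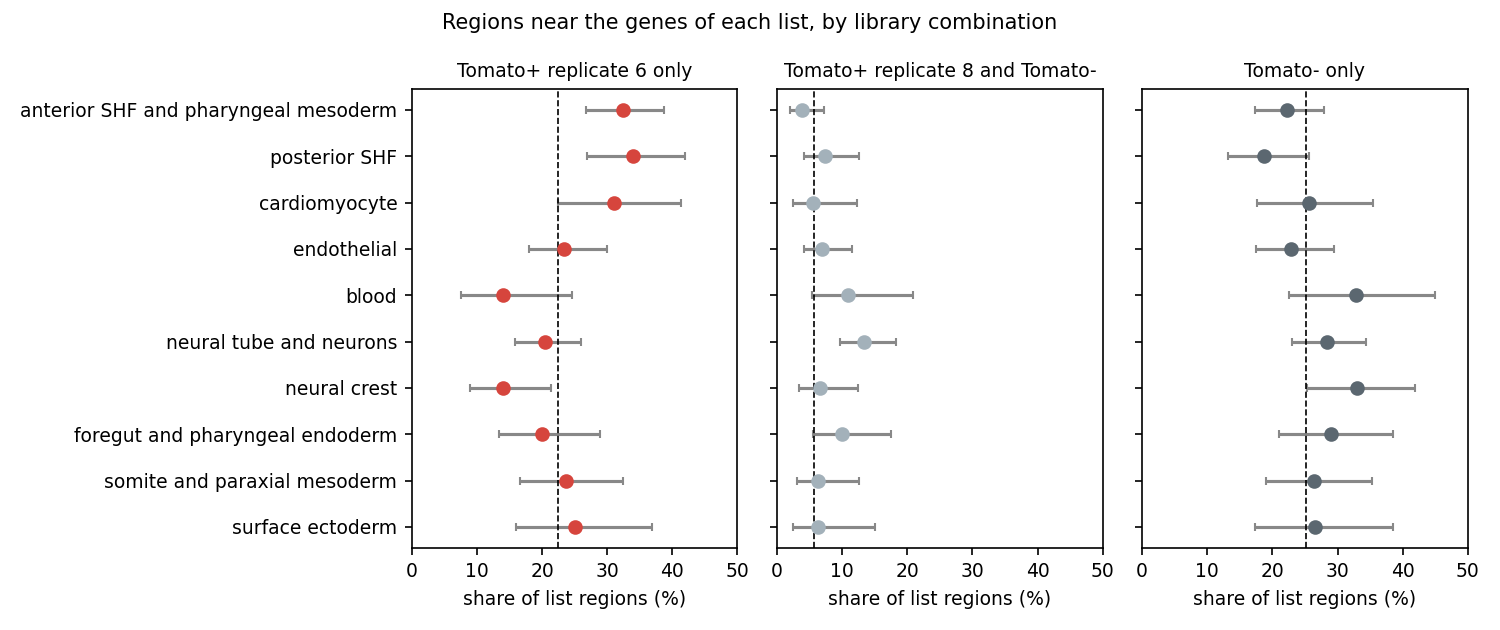
Share of the regions assigned to each gene list (horizontal axes, percent) that lie in Tomato+ replicate 6 only (left), in Tomato+ replicate 8 and Tomato- (middle) and in Tomato- only (right), with 95% Wilson confidence intervals and the share of all assigned regions as a dashed line. The anterior and posterior SHF lists stand above the line on the left and the neural list in the middle.

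Tomato+ only regions near list genes were few. There were 8 of 234 for the anterior list (3.42%), 7 of 150 for the posterior list (4.67%), 3 of 90 for cardiomyocytes, 8 of 188 for endothelium, 5 of 240 for neural genes, 2 of 121 for crest, 2 of 100 for endoderm, 4 of 110 for somites, 3 of 64 for ectoderm and 0 of 64 for blood, with an upper limit of 5.66%. All 10 intervals included the share of all regions, and the anterior interval ran from 1.74 to 6.60 and the posterior from 2.28 to 9.32. The regions named next were chosen after their values were seen. Eya1, which encodes a transcriptional cofactor of the anterior SHF, held 3 of them, all intronic. The Eya1 region at chr1:14181700-14182048 had fold enrichments of 3.94 and 4.25 in Tomato+ replicates 6 and 8, that at chr1:14185987-14186127 had 3.94 and 3.96, and that at chr1:14266105-14266365 had 3.61 and 3.68. A region 761 bp downstream of the Tcf21 TSS (chr10:22819235-22819577) had 4.28 and 3.96. Distal regions of this class also lay 112638 bp from Tbx18, a venous pole factor (chr9:87618280-87618756), with 5.91 and 3.40, 124481 bp from Tbx5 (chr5:119959015-119959474), with 4.18 and 3.40, and 12008 bp from Hand1 (chr11:57820033-57820285), with 3.33 and 3.48. Tek, an endothelial receptor gene, held one in an intron (chr4:94752365-94752876) with 5.25 and 3.17, and Meox1, a somite factor gene, one at -2802 bp (chr11:101896799-101897401) with 5.65 and 3.39. An exon of Neurod1, a neural gene, held one (chr2:79454132-79454492) with 5.18 and 4.77. Replicate 6 was the higher library at Tcf21, Tbx18, Tbx5, Tek, Meox1 and Neurod1, and at Eya1 and Hand1 replicate 8 was slightly higher.

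Single list genes were named after their counts were seen. Of all assigned regions, 22.5% lay in Tomato+ replicate 6 alone and 25.2% were Tomato- only. A further 5.73% lay in replicate 8 and the Tomato- library. The counts below favour genes with many assigned regions, and the shares of some were near these values. Regions in Tomato+ replicate 6 alone were most numerous at the neural gene Irx3, with 13 of 34, and the endothelial receptor gene Flt1, with 11 of 23, followed by Wnt11 with 9 of 28. There were 7 each at Tcf21 (of 10), Isl1 and Hand1 (of 16), Eya1 and Nr2f2 (of 18) and the ectoderm gene Tfap2c (of 25), and at Bmp4 5 of its 5 regions. Genes of heart, neural, endothelial and ectoderm lists were thus among those with most such regions. Of the Zic1 regions 7 of 13 lay in Tomato+ replicate 8 and the Tomato- library. Tomato- only regions were most numerous at Tfap2c with 11 of 25, Neurog2 with 10 of 18, the somite gene Uncx with 10 of 24, Runx1 with 9 of 15 and Dbx1 with 9 of 29. Regions in replicate 6 alone near the 3 heart lists were then looked up in the Hoxb1GFP line. Of these 148 regions, 29 and 33 had a peak in the GFP+ and 12 and 19 in the GFP- libraries, that is 19.6% and 22.3% against 8.11% and 12.8%. For the posterior list alone the numbers were 13 and 12 against 4 and 5 of 51, and for the cardiomyocyte list 3 and 6 against 2 and 3 of 28. All regions of replicate 6 alone showed this order, at 10.8% and 11.2% against 7.35% and 7.95%, and so did 17 crest regions, with 5 and 3 against 0 and 1, 20 endoderm regions, with 4 and 4 against 1 and 2, and 26 somite regions, with 2 and 4 against 1 and 1. For the 49 neural regions the numbers were 6 and 10 against 10 and 8. The 44 endothelial regions had 5 and 4 against 2 and 6. Blood, with 9 regions, had 0 and 3 against 0 and 2, and surface ectoderm, with 16, had 2 and 0 against 1 and 1. The order was thus neither confined to the heart lists nor seen in every list.

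The letters of transcription factor motifs were counted in 200 bp at the summit of distal regions, and beside the shares stand those of shared regions weighted to the same GC content. Beside the letters given with the sequences, the search covered CAGCTG, an E-box of muscle factors found in 14.8% of all distal regions, the NKX2 letters CACTTAA in 1.46%, the homeodomain letters TAATTA in 2.24%, the MEF2 letters TATTTATA in 0.690%, the HOX and PBX letters TGATTGAT in 0.608%, the MEIS letters TGACAG in 15.2% and the T-box letters AGGTGTGA in 0.917%. It also covered the FOX letters TGTTTAC in 1.89%, the ETS letters CCGGAAG in 1.55%, the SOX letters ACAATGG in 2.596%, the POU octamer ATGCAAAT in 0.872%, the RUNX letters TGTGGTT in 4.37%, the TFAP2 letters GCCTGAGG in 2.03% and the spaced NFI motif in 0.0217%. Regions of Tomato+ replicate 6 alone held AGATAA in 9.39% (9.05 to 9.74) against 5.55% of shared regions, and GGAATG in 13.4% (13.01 to 13.82) against 11.2%. In Tomato+ only regions AGATAA was at 5.96% (5.15 to 6.90) against 4.90% and GGAATG at 12.0% (10.9 to 13.3) against 10.5%, and in Tomato- only regions they were at 6.59% (6.32 to 6.88) against 5.11% and at 10.4% (10.02 to 10.70) against 11.01%. AGATAA, read by the cardiac factors Gata4, Gata5 and Gata6 and the blood factor Gata1, was thus most frequent in replicate 6 alone, and in the class that both Tomato+ libraries share it was below the share of all distal regions. The SOX letters ACAATGG stood at 3.88% (3.44 to 4.37) in regions of Tomato+ replicate 8 with the Tomato- library against 2.48% of shared regions, at 1.95% (1.503 to 2.53) against 2.403% in Tomato+ only and at 2.71% (2.53 to 2.90) against 2.503% in Tomato- only regions. The POU octamer ATGCAAAT was at 1.499% (1.23 to 1.82) there, against 1.08% of shared regions, and at 0.631% (0.544 to 0.731) against 1.1% in replicate 6 alone. With the 30000 strongest peaks of each library, AGATAA was at 9.71% and GGAATG at 14.1% in replicate 6 alone. ACAATGG was at 3.68% (3.03 to 4.47) and ATGCAAAT at 1.71% (1.28 to 2.28) in replicate 8 with the Tomato- library. GGAATG thus lay above its interval given before, and the other letters lay within theirs. In Tomato- only regions ACAATGG was then at 3.09% (2.59 to 3.68) and ATGCAAAT at 1.25% (0.947 to 1.65), with intervals that overlap those of replicate 8 with the Tomato- library.

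Some other letters are given without weighting for GC content. Of these, the MEIS and AP-1 letters were more frequent in every combination outside the shared class than in shared regions. TGACAG, read by MEIS factors, was at 18.6% in replicate 6 alone, 16.2% in replicate 8 alone, 15.5% in Tomato- only, 14.7% in Tomato+ only and 10.1% in shared distal regions. The AP-1 letters TGACTCA stood at 4.13%, 3.71%, 3.79%, 3.58% and 1.93% in the same order. The CTCF letters AGGGGGCG were at 0.852%, 0.976%, 0.947%, 2.09% and 2.13%, so here Tomato+ only regions were like shared ones. The HOX and PBX letters TGATTGAT were at 0.887% (0.602 to 1.31) in Tomato+ only regions and 0.816% (0.716 to 0.929) in replicate 6 alone. They were at 0.488% (0.416 to 0.573) in Tomato- only and 0.507% (0.413 to 0.622) in shared regions, and the shared interval overlaps that of Tomato+ only regions. In replicate 6 with the Tomato- library they were at 0.478% (0.324 to 0.705). In replicate 8 alone they were at 0.596% and in replicate 8 with the Tomato- library at 0.585%. A peak in replicate 6 thus did not always go with a higher share. Of all distal regions of replicate 6 alone, without a repeat limit, 9.39% held AGATAA. The heart lists were the only ones for which these letters were counted, so no difference to other lists can be read from them. Among low-repeat distal regions of replicate 6 alone, AGATAA was found in 8 of 63 of the anterior, 7 of 40 of the posterior and 2 of 19 of the cardiomyocyte list. The Fgf10 region among these (chr13:118759054-118759325, in an intron 44568 bp from the TSS) had a fold enrichment of 4.27 in replicate 6, the Wt1 region (chr2:105139508-105139600, in an intron 13017 bp from the TSS) 3.72 and the region near Pln, the phospholamban gene (chr10:53324861-53325023, -12768 bp), 5.26.

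Mef2c holds the fragment that drives Cre. The shared region at chr13:83523184-83524936, in an intron of Mef2c and 134 bp from an internal TSS, had pileups of 114, 48 and 28, -log10 p of 65.98, 22.65 and 11.47 and fold enrichments of 8.22, 5.64 and 4.35 in Tomato+ replicates 6 and 8 and the Tomato- library. Its percentile ranks were 96.6, 70.0 and 33.3, the only promoter of the anterior list other than Foxc1 called higher in Tomato+. Tomato+ replicate 6 was far above both others there, and the Tomato- library, although deepest, was lowest. A second shared region at chr13:83520914-83521132 had -log10 q of 5.31, 5.03 and 2.77, fold enrichments of 2.67, 3.003 and 2.698 and a peak in none of the 4 libraries of the Hoxb1GFP line. Another shared region at chr13:83518054-83518616 went another way, with pileups of 24, 48 and 32 and fold enrichments of 2.66, 7.19 and 5.71, so that replicate 6 was lowest.

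The local background under the Mef2c peaks moved with these values. Relative to the background of the whole genome it had a median of 1.58 and a range from 1.32 to 1.97 over the Tomato- peaks, against ranges from 4.11 to 7.02 in Tomato+ replicate 6, from 2.04 to 3.68 in replicate 8 and from 1.03 to 1.34 in the Hoxb1GFP line. The libraries thus ordered as replicate 6, replicate 8, Tomato- and the other line, with no overlap among the first 3. At chr13:83523184-83524936 the background was 4.08 and 1.95 times that of the Tomato- library in replicates 6 and 8. Over all shared regions these ratios had medians of 1.02 and 1.0 and 99th percentiles of 1.54 and 1.26. The 3 shared regions at Mef2c had the 3 highest of the 30027 ratios of replicate 6, and by the ratio of replicate 8 they came directly behind 2 regions near 9230019H11Rik on chromosome 10 with 2.28. The only header kept mentions no control library. Without a control, the local background comes from the library's own tags, in windows of up to 10000 bp. Such windows can include the peaks themselves and can be shared by the 3 neighbouring Mef2c regions. The ratios are therefore not independent of the pileups or of each other. Fold enrichment divides by the local background, and whether copies of the transgene add to the Mef2c values was not tested. At Gt(ROSA)26Sor, the locus of the reporter, each library had 1 peak, with fold enrichments of 6.33, 6.42 and 6.81 in Tomato+ replicates 6 and 8 and the Tomato- library and from 6.80 to 7.43 in the other line, and the background was 3.84, 4.22 and 4.21 against 3.05 to 3.57. The Tomato+ and Tomato- libraries were alike there.

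**Figure D5:**
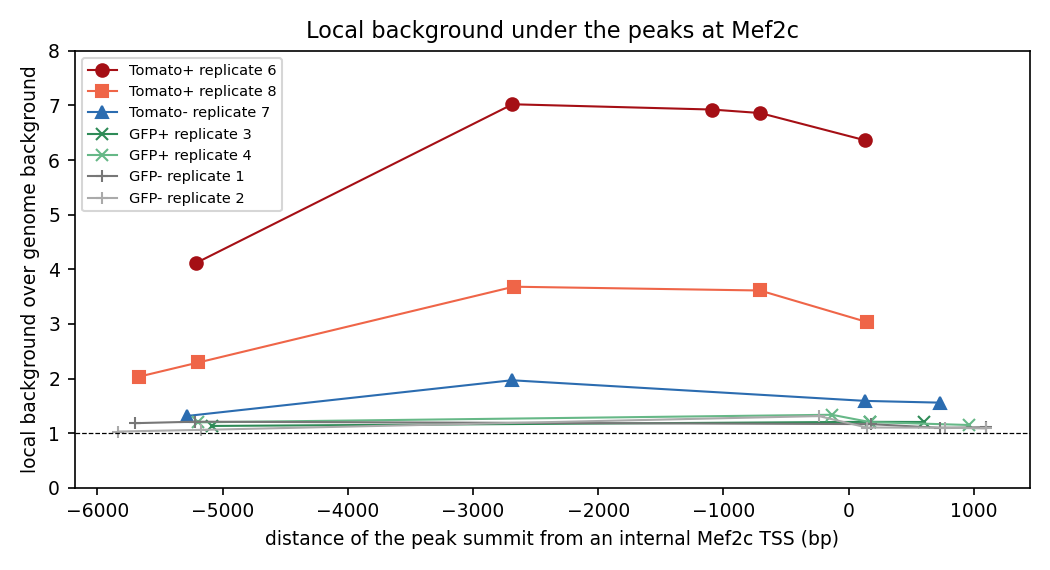
Local background over genome background (vertical axis, a ratio) under each deposited peak at Mef2c, against the distance of the peak summit from an internal Mef2c TSS (horizontal axis, bp), for the 7 libraries. Tomato+ replicate 6 lies highest, from 4.11 to 7.02, followed by Tomato+ replicate 8, the Tomato- library and the libraries of the Hoxb1GFP line near 1.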

How the data were processed

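ATAC-seq peak lists of 3 libraries of E9.5 Mef2c-Cre;RosatdT embryos were compared. Reads had been aligned by the authors to GRCm38 (mm10) with SNAP and cleared of blacklisted regions and of unmapped, duplicate, secondary or improperly paired reads before MACS2 called peaks for each library on its own. The submitters' processing notes name bcl2fastq 2.17.1.14, SAMtools, MACS2 2.1.1, DiffBind and HOMER. For each peak the authors deposited the pileup, a coverage signal that grows with depth, the fold enrichment, a ratio of pileup to local background, and MACS -log10 p-values and -log10 q-values. The lists go down to a -log10 p of 2. Only Tomato+ replicate 6 kept its header, which gives a tag extension of 73 bp and mentions no control library.

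Rows with the same interval were collapsed to the summit of smallest p. Tags per library were computed from the lowest background rate. Classes and rank calls follow the rules in the results, and absence means no peak at the threshold. TSSs were those of 45756 curated RefSeq transcripts. Shares carry 95% Wilson intervals, GC weights used bins of 5%, and class and rank scripts were tested on simulated data. Named regions are the 8 strongest or most shifted per direction with under 50% soft-masked repeat at the summit, list genes with called promoters, up to 4 further genes a list, Mef2c and Gt(ROSA)26Sor. Some list genes with called promoters are not reported here. Members, lists and rules were chosen with earlier results of these data known. Alternatives were a -log10 q of 4, the 30000 strongest peaks, an overlap of 50%, absence at any p, a gap of 30 points, ranks by fold enrichment, motif windows of 400 bp or without repeats, promoters within 500 bp of the TSS, and leaving out each Tomato+ library. Those for gene lists and for the combinations with 1 Tomato+ library were added after seeing the data. The software was pandas 2.3.3, scipy 1.17.1, numpy 2.4.6 and matplotlib 3.10.9 under Python 3.11.15.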

Additional observations from a re-analysis of the deposited data

How the results depend on the processing

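The numbers of regions depended on the threshold. At a -log10 q of at least 4 there were 1149 Tomato+ only and 8512 Tomato- only regions. With the 30000 strongest peaks of each library there were 1466 Tomato+ only, 4515 Tomato- only and 19473 shared regions, and promoters made up 21.9%, 13.2% and 48.0% of them. Where absence meant no deposited peak at any p, 1447 Tomato+ only and 20231 Tomato- only regions were left. A gap of 30 percentile points left 227 regions higher in Tomato+ and 213 higher in Tomato-. Promoters taken as 500 bp around the TSS held 9.58% of Tomato+ only and 4.80% of Tomato- only regions. Without Tomato+ replicate 6 or 8, which removes the need for a second Tomato+ library, there were 24137 to 32123 Tomato+ only regions, of which 4.42% to 4.43% lay at promoters, 3807 to 4601 regions higher in Tomato+ and 3763 to 4642 higher in Tomato-, and promoter shares of 5.17% to 5.74% of Tomato- only and 34.2% to 35.0% of shared regions. An overlap of 50% of the shorter peak and ranks by fold enrichment moved no count by over 1.5 times, and in each alternative run the rank correlation was highest between Tomato+ replicate 8 and the Tomato- library, with values from 0.764 to 0.862 over the 3 pairs. Motif shares rose with windows of 400 bp in 41 of 42 cases by more than their interval. No paired analysis was possible because the labels do not say which Tomato+ library belongs with the Tomato- library, and 1 Tomato- library gives no test.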

Other observations

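Peaks on the sex chromosomes differed between the libraries. Of the peaks with a -log10 q of at least 2, 3.10% lay on chromosome X in Tomato+ replicate 6, 4.30% in Tomato+ replicate 8 and 3.52% in the Tomato- library, against 3.45% to 3.84% in the Hoxb1GFP line. On chromosome Y the shares were 1.33%, 1.14% and 1.69%, against 0.805% to 1.14%. Regions of Tomato+ replicate 6 alone lay on X in 1.07% and those of replicate 8 with the Tomato- library in 5.62%. The sex of the pooled embryos is not given in the sources used here.

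Of the 3080 Tomato+ only regions, 849 (27.6%) had no peak in any library of the Hoxb1GFP line and 11.2% had one in all 4. Of the Tomato- only regions 71.4% had none, and of the shared regions 1.52%.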
